A study of Rattus norvegicus with 4 samples.

Results

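Among the long non-coding RNA (lncRNA) transcripts measured in rat heart muscle cells, 226 were models assembled from sequencing reads and carried no NONCODE or Ensembl identifier. They were chosen by an identifier that starts with MSTRG and by an FPKM that averaged 1 or more over the 4 libraries, with 0 entered where a library did not list the transcript. FPKM is the read count scaled by transcript length and by library total. The tables listed 264 assembled transcripts and 17934 transcripts of every kind. This level was reached by 7321 transcripts, of which 6986 carried NONCODE and 109 Ensembl identifiers. Of the assembled transcripts, the 2 closest to the threshold inside it were MSTRG.4694.1 at a mean of 1.01 FPKM and MSTRG.11836.1 at 1.03 FPKM. The 2 closest outside it were MSTRG.3951.1 at 0.995 FPKM and MSTRG.606.1 at 0.990 FPKM.

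All groups were primary cardiomyocytes of Sprague-Dawley rats 1 to 2 days old, in M199 medium supplemented with carnitine, creatine and taurine. High glucose (HG) was 33 mmol/l glucose, by which the study induced oxidative stress and apoptosis, and normal glucose (NG) was 5 mmol/l glucose with 28 mmol/l mannitol added to equalise the osmolality. Cells of each medium were taken at 48 h and at 24 h, with 1 library of total RNA per group, so the 4 libraries were HG at 48 h, NG at 48 h, HG at 24 h and NG at 24 h. A difference between single libraries has no replicate check. No cell type markers could be checked, because the tables pair their identifiers with no gene names.

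lncRNAs are transcripts with no evident protein product, many of them of low abundance and restricted to particular cell types. NONCODE is a database of such transcripts and Ensembl a general genome annotation. Transcript assembly joins aligned reads, including those that cross splice junctions, into models, and a model that matches no known transcript keeps a provisional label. MSTRG is the prefix that the merge step of the assembler StringTie writes by default. In a label such as MSTRG.10360.2 the first number marks a locus and the suffix an isoform of it. The reads of isoforms that share exons are divided by the counting method, and the sources used here do not give that method, so counts of single isoforms are less certain than those of a whole number.

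The recovered library totals behind FPKM ran from 11877895 to 15654067, and 1 read corresponded to between 0.0639 and 0.0842 CPM, the count scaled to that total. The assembled transcripts had a median of 20 reads in HG at 48 h, 26.5 in NG at 48 h, 28.5 in HG at 24 h and 21 in NG at 24 h, against 29, 36, 37 and 29 reads over all 7321 transcripts in the same libraries. They took 1.51% of the lncRNA counts in HG at 48 h (95% Wilson interval 1.48 to 1.53), 1.31% in NG at 48 h (1.29 to 1.33), 1.37% in HG at 24 h (1.35 to 1.39) and 1.40% in NG at 24 h (1.37 to 1.42). Intervals cover counting error only. These shares depend partly on a single transcript, MSTRG.12704.2. It held 20.9% of the assembled counts in HG at 48 h, 13.9% in NG at 48 h, 18.5% in HG at 24 h and 22.6% in NG at 24 h.

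Among transcripts past the threshold, the assembled ones were the least abundant by median. Their median of mean FPKM was 1.87 (quartiles 1.46 and 2.72), against 2.94 (1.61 and 6.61) for NONCODE and 2.38 (1.50 and 4.33) for Ensembl transcripts under the same threshold. The order was the same in each library. In HG at 48 h the median was 1.72 FPKM for assembled, 2.11 for Ensembl and 2.61 for NONCODE transcripts, and in NG at 24 h it was 1.99, 2.64 and 3.01 FPKM. Between 1 and 2 FPKM lay 122 of the assembled transcripts (54.0%), against 35.0% of NONCODE and 39.4% of Ensembl transcripts. At least 10 FPKM was reached by 7 of them (3.10%), against 16.1% of NONCODE and 11.0% of Ensembl transcripts. These shares are descriptions of transcripts that passed one threshold, and transcripts are not replicates. Over all listed transcripts, the assembled ones instead had the highest median. It was 1.69 FPKM for the 264 assembled, 0.675 for 17141 NONCODE and 0.260 for 529 Ensembl transcripts, so the lower level holds only past the threshold. The threshold was passed by 226 of the assembled, 6986 of the NONCODE and 109 of the Ensembl transcripts. An assembled model needs reads to exist, while database transcripts can be listed at any read count. The medians over all listed transcripts are therefore not like for like.

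**Figure D1:**
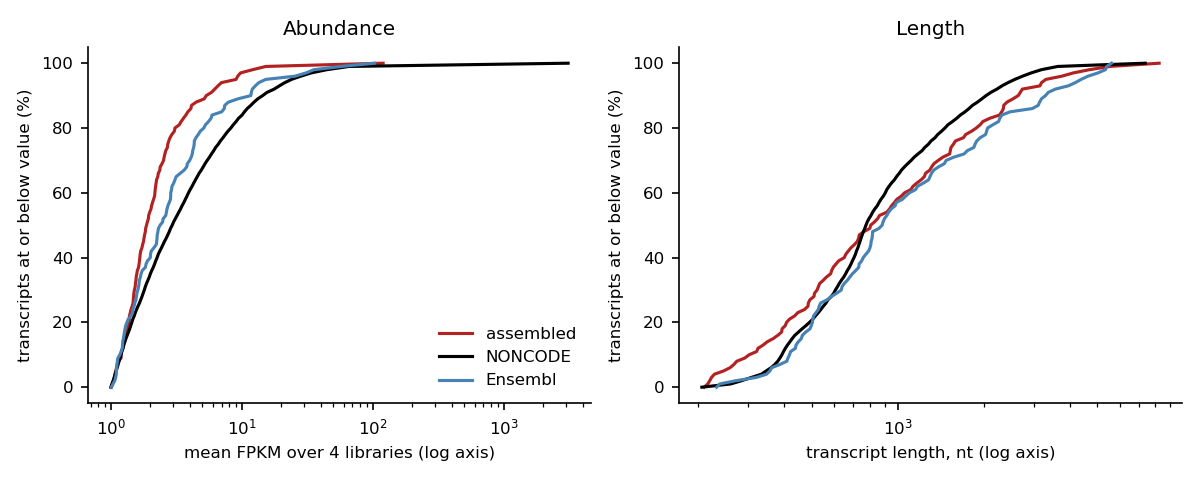
Cumulative share of transcripts (%) against mean FPKM over the 4 libraries (left) and transcript length in nt (right), both on log axes, for assembled, NONCODE and Ensembl transcripts with a mean of at least 1 FPKM. At the median and the upper quartile the assembled curve lies left of the others (1.87 and 2.72 FPKM, against 2.38 and 4.33 for Ensembl and 2.94 and 6.61 for NONCODE), near the threshold the curves lie together, and the assembled median length of 804 nt lies between those of NONCODE (774 nt) and Ensembl transcripts (882 nt).

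None of the 226 assembled transcripts was a single block: in each, the genomic span was longer than the transcript. The same held for the 38 listed below the threshold, since 0 of 264 were single blocks. By contrast 3294 of the 6986 NONCODE transcripts (47.2%) and 9 of the 109 Ensembl transcripts (8.26%) had a length equal to their span. The difference between span and length had a median of 2123 bases and ran from 20 to 111492 bases. It was under 100 bases in 18 transcripts, and no exon positions are given. The median transcript length was 804 nt (quartiles 485 and 1568), against 722 nt for NONCODE transcripts with a span longer than their length. MSTRG.14488.1 (chromosome 3, 163154939 to 163163508) was the longest at 8240 nt, at a mean of 1.33 FPKM. MSTRG.2039.1 (chromosome 1, 215924285 to 215934216) was the shortest at 210 nt, with 11, 1, 1 and 0 reads in HG at 48 h, NG at 48 h, HG at 24 h and NG at 24 h. Its length, like those of 10 others, was recovered from its counts and FPKM.

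The most abundant assembled transcript stood apart from the others. MSTRG.12704.2 (chromosome 20, 19483978 to 19485844, 1521 nt) had 131 FPKM in HG at 48 h, 86.8 in NG at 48 h, 114 in HG at 24 h and 148 in NG at 24 h. It ranked 31 among the 7321 transcripts and held between 13.9% and 22.6% of the counts of all assembled transcripts. HG was above NG at 48 h and below it at 24 h, with log2 ratios of 0.60 and -0.38. Here and below, log2 ratios are of CPM + 1, in which the added 1 shrinks ratios of low transcripts.

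MSTRG.20997.1 (chromosome 8, 117082364 to 117094727, 608 nt), ranked 112, had 28.3 FPKM in HG at 48 h, 49.8 in NG at 48 h, 64.6 in HG at 24 h and 64.5 in NG at 24 h. The HG library at 48 h was the lowest, while both media were alike at 24 h. MSTRG.13869.1 (chromosome 3, 112128166 to 112132073, 1255 nt), ranked 632, had 16.8, 14.6, 17.0 and 14.4 FPKM in HG at 48 h, NG at 48 h, HG at 24 h and NG at 24 h. Its HG libraries were slightly above the NG library of the same time, by log2 ratios of 0.18 and 0.23.

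The transcripts lay on 21 chromosomes and 2 unplaced scaffolds of the rat build rn6, with 24 on chromosome 1 and 18 each on chromosomes 7 and 10. Most of them were apart from the NONCODE and Ensembl transcripts listed in these libraries. Known transcripts that no library listed were not compared. By position, 202 overlapped no listed NONCODE or Ensembl transcript, and 24 (10.6%) overlapped at least 1 by at least 1 base, 20 of them NONCODE and 5 Ensembl transcripts. With only overlapping transcripts of at least 1 FPKM counted, the number was 9. The tables give no strand, so an overlap may lie on the opposite strand. Of the 24, 15 lay wholly inside a known span, 5 contained one, and none had the same start and end as a known transcript. Of the 6986 NONCODE transcripts, 2396 (34.3%) overlapped another NONCODE or Ensembl transcript, a count that includes partners of their own kind. The 10.6% leaves assembled partners out, so the 2 shares are not alike. With assembled partners counted too, 155 of the 226 overlapped no listed transcript. Their place relative to protein-coding genes, such as exon, intron or untranslated region, was not analysed here.

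Of the 202 transcripts without such an overlap, 2 lay on scaffolds with no listed NONCODE or Ensembl transcript. The other 200 lay a median of 34917 bases from the nearest listed NONCODE or Ensembl transcript (quartiles 10911 and 124143). For 12 the distance was at most 1000 bases, and for 54 it was over 100000 bases. Median abundance was 1.75 FPKM with an overlap and 1.89 FPKM without. Median length was 1433 nt with an overlap and 747 nt without. The most overlaps, 3, were found for MSTRG.8415.1 and MSTRG.8732.1. MSTRG.8415.1 (chromosome 16, 36296894 to 36298039, 734 nt) had 8.91 FPKM in HG at 48 h, 11.6 in NG at 48 h, 12.0 in HG at 24 h and 12.5 in NG at 24 h, and overlapped ENSRNOT00000080111, NONRATT011956.2 and NONRATT011957.2 over 42.7% of its span. MSTRG.8732.1 (chromosome 17, 345929 to 348520, 252 nt) lay wholly inside 3 NONCODE transcripts and had 1.12, 1.87, 2.03 and 1.00 FPKM in the same order of libraries.

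The 226 transcripts came from 203 MSTRG numbers, so few loci had several abundant isoforms. A single member was held by 186 numbers, 2 members by 13, 3 by 2 and 4 by 2. With isoforms below the threshold included, 25 numbers listed at least 2 isoforms, and they held 48 of the 226. In 26 numbers the highest isoform suffix was above the number of isoforms listed, up to a suffix of 7. Isoforms of those numbers that are not among the lncRNA rows were not analysed here.

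The isoform with the most reads changed from library to library in 18 of these 25 numbers. Some of these changes were near ties. MSTRG.5017.2 led MSTRG.5017.1 by 33 to 32 reads in NG at 48 h, and MSTRG.4965.2 led MSTRG.4965.1 by 17 to 16 in HG at 48 h. The examples that follow are among the larger changes. At MSTRG.20130 on chromosome 8, 3 isoforms led in at least 1 library. MSTRG.20130.3 (23085017 to 23090148, 2047 nt, below the abundance threshold) held all 74 reads of the number in HG at 48 h, but 8 of 68 in NG at 48 h, 5 of 73 in HG at 24 h and 3 of 42 in NG at 24 h. MSTRG.20130.1 (23084499 to 23090334, 1486 nt) held 0 reads in HG at 48 h and 41, 33 and 38 reads in NG at 48 h, HG at 24 h and NG at 24 h. The sum over the number varied far less, at 5.20, 4.58, 4.66 and 3.54 CPM in HG at 48 h, NG at 48 h, HG at 24 h and NG at 24 h.

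MSTRG.21122 on chromosome 8 divided in the same way. MSTRG.21122.1 (126978168 to 126990745, 507 nt) held 28 of 29, 24 of 24 and 26 of 26 reads in HG at 48 h, NG at 48 h and HG at 24 h, and 0 of 19 in NG at 24 h. MSTRG.21122.2 (126990050 to 126990617, 379 nt) held all 19 reads in NG at 24 h and 1 read in the other libraries together. The sums were 2.04, 1.62, 1.66 and 1.60 CPM in HG at 48 h, NG at 48 h, HG at 24 h and NG at 24 h. In NG at 24 h the longer isoform was thus unlisted while the sum was close to those of the other libraries.

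At MSTRG.10360 on chromosome 19, the highest of these 25 numbers by summed CPM in all 4 libraries, MSTRG.10360.3 (33551733 to 33641520, 2629 nt) held 24.2% of the reads in HG at 48 h (95% Wilson interval 20.4 to 28.5), 59.1% in NG at 48 h (53.2 to 64.7), 51.6% in HG at 24 h (45.5 to 57.6) and 3.05% in NG at 24 h (1.40 to 6.48). MSTRG.10360.2 (33551421 to 33555222, 3312 nt) held 45.9%, 25.4%, 19.0% and 72.6% in the same order. The sums over the number were 29.9, 18.6, 16.5 and 16.6 CPM. The shares of MSTRG.10360.2 and MSTRG.10360.3 were not ordered by medium or by time. MSTRG.10360.2 led in HG at 48 h and in NG at 24 h, and MSTRG.10360.3 in the other libraries. The remaining isoform, MSTRG.10360.4 (33551737 to 33572241, 2659 nt), held 29.9% in HG at 48 h and 29.5% in HG at 24 h. In NG it held 15.6% at 48 h and 24.4% at 24 h, so both HG shares lay above both NG shares. At 24 h these were 76 of 258 reads in HG and 48 of 197 in NG. No counting interval is given for these shares, so counting error may cover the difference at 24 h.

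MSTRG.9427 on chromosome 17 listed 4 isoforms that begin at the same base, 87849852. MSTRG.9427.2 (228 nt) was listed in HG at 48 h alone, with 16 reads, and MSTRG.9427.1 (393 nt) had 1 read there, against 18 in NG at 48 h, 44 in HG at 24 h and 18 in NG at 24 h. MSTRG.9427.3 (392 nt) had 0, 18, 1 and 12 reads and MSTRG.9427.4 (408 nt) 17, 0, 0 and 11 reads in that order. At MSTRG.2039, where 4 members share an Ensembl overlap, the sums were 4.92 CPM in HG at 48 h, 2.22 in NG at 48 h, 3.32 in HG at 24 h and 2.19 in NG at 24 h. Both HG sums there lay above both NG sums, with log2 ratios of CPM + 1 of 0.88 at 48 h and 0.44 at 24 h.

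**Figure D2:**
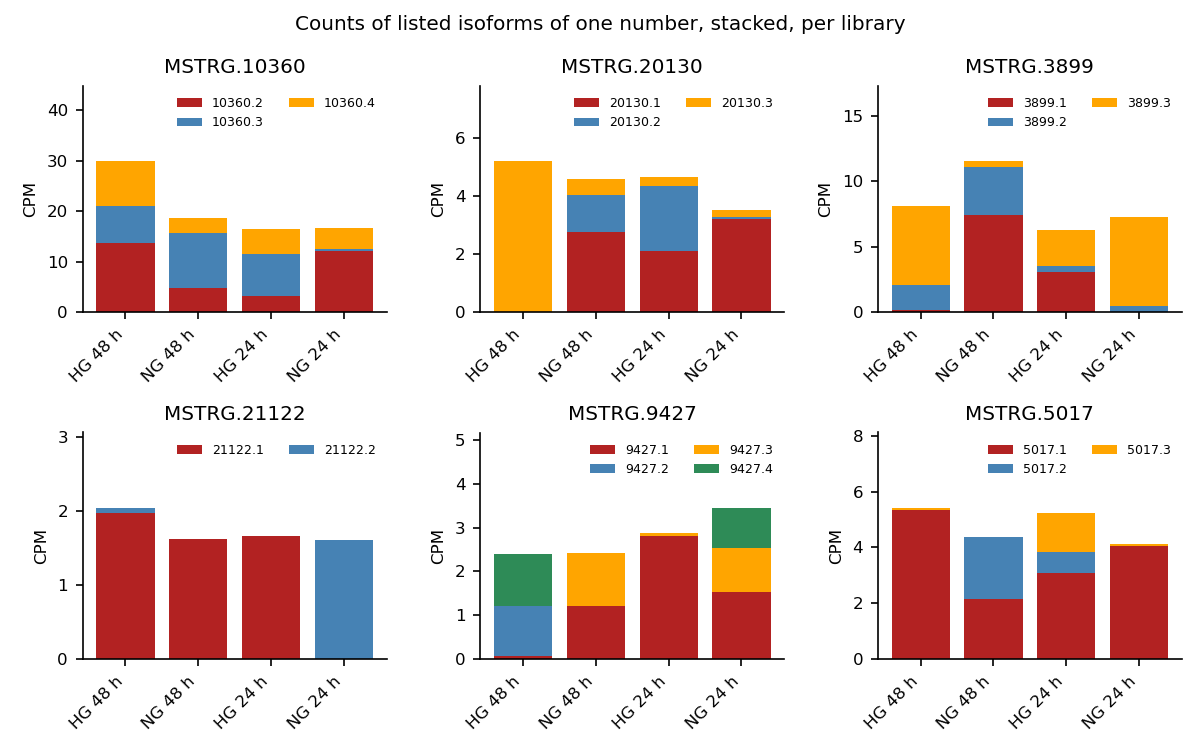
Stacked CPM of the listed isoforms of 6 MSTRG numbers in the 4 libraries (HG 48 h, NG 48 h, HG 24 h, NG 24 h, 1 library each), with colours for isoforms, some of them below the abundance threshold. The composition of a bar changes between libraries, as at MSTRG.20130, where 1 isoform holds all reads in HG at 48 h, while the total height stays between 3.54 and 5.20 CPM.

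Glucose at 24 h was compared to ask which assembled transcripts differ early in HG. The threshold was 2-fold on log2 (CPM + 1). In HG, 6 of the 226 were above NG and 6 below it by 2-fold or more, 5.31% in all, against 2.34% higher and 2.55% lower (4.89% in all) of the 7321 transcripts. The median log2 ratio was -0.05, against -0.04 over all transcripts. Of these 12, 11 belonged to numbers with at least 2 listed isoforms. None of the 25 numbers was past 2-fold as a sum, and 1 of the 178 other members was, MSTRG.15264.1. Counting intervals of the ratio excluded 1 for 49 of the 226 (21.7%), 20 higher and 29 lower, against 7.62% higher and 10.8% lower (18.5% in all) of the 7321. In such bulk RNA, fewer cells of a type and less RNA per cell cannot be told apart.

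The highest ratio at 24 h was that of MSTRG.10360.3, with 133 reads in HG and 6 in NG, 16.8-fold higher by CPM (95% counting interval 7.53 to 46.7). MSTRG.10481.1 (chromosome 19, 41591176 to 41592278, 472 nt) had 35 reads in HG and was not listed in NG, at least 8.85-fold higher when NG is set to 3 counts, the floor used for each unlisted library. Here and below, "at least" refers to this set floor and is not the lower end of a counting interval. MSTRG.15346.1 (chromosome 4, 115698954 to 115702487, 1757 nt) was lowest, with 3 reads in HG and 71 in NG, 31.2-fold lower (10.2 to 155). MSTRG.10360.2 followed with 49 and 143 reads in HG and NG, 3.85-fold lower (2.76 to 5.44). All of these share their number with other isoforms, and the sums per number had log2 ratios of -0.0086 for MSTRG.10360, -0.070 for MSTRG.10481 and 0.17 for MSTRG.15346.

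At 48 h, 9 of the 226 were above NG by 2-fold or more in HG and 11 below it, 8.85% in all, against 2.85% higher and 4.32% lower (7.17% in all) of the 7321. The median log2 ratio was -0.13, against -0.14 over all transcripts. TMM scaling moved both medians to -0.01, and the counts in each direction were 10 and 10 with it. The share of the 7321 past 2-fold with TMM scaling is not given here. Of the 20, 16 belonged to numbers with several listed isoforms, of which 2 were past 2-fold as sums, and 4 were among the 178 others. Counting intervals excluded 1 for 71 of the 226 (31.4%), 26 higher and 45 lower, against 9.52% higher and 22.5% lower (32% in all) of the 7321. With TMM scaling, 31 were higher and 34 lower, against 15.1% and 13.7% of the 7321, a setting chosen after the data were seen.

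MSTRG.3899.3 (chromosome 10, 81829824 to 81839560, 2155 nt) was highest at 48 h, with 85 reads in HG and 6 in NG, 14.8-fold higher (6.52 to 41.4). MSTRG.6919.2 (chromosome 14, 44099954 to 44106949, 324 nt) had 50 reads in HG and 9 in NG, 5.80-fold higher (2.82 to 13.4). MSTRG.20130.1 was not listed in HG and had 41 reads in NG, at least 13.1-fold lower. MSTRG.5017.2 (chromosome 11, 83313317 to 83323594, 487 nt) was not listed in HG and had 33 reads in NG, at least 10.5-fold lower. As sums per number these log2 ratios were -0.46 for MSTRG.3899, 0.90 for MSTRG.6919, 0.15 for MSTRG.20130 and 0.25 for MSTRG.5017. The sums past 2-fold at 48 h were those of MSTRG.100 and MSTRG.21622, both lower in HG by a log2 ratio of -1.04.

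**Figure D3:**
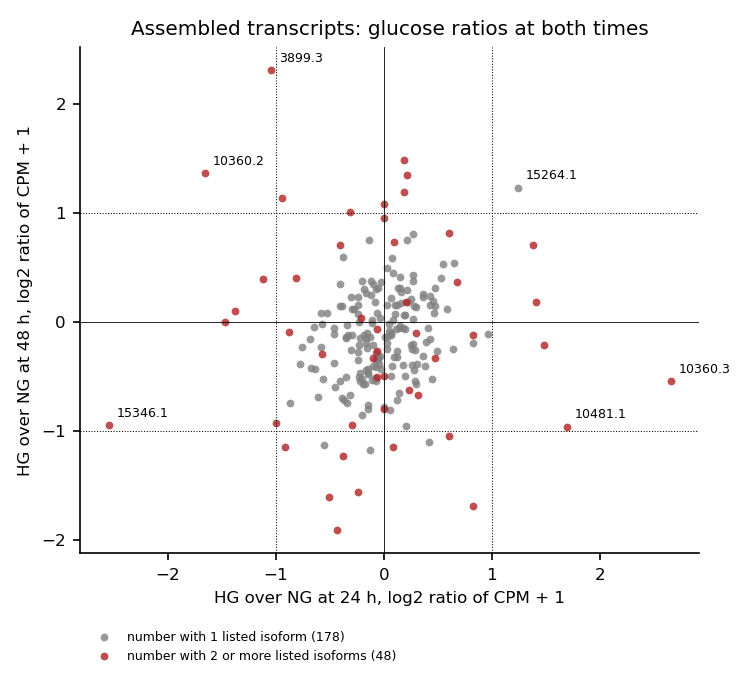
Log2 ratio of CPM + 1 of HG over NG at 24 h (x axis) and at 48 h (y axis) for the 226 assembled transcripts, with dotted lines at 2-fold. Members of numbers with 1 listed isoform (grey, 178) gather within 2-fold at both times apart from MSTRG.15264.1 at 1.24 and 1.23 and a few past 2-fold at 48 h, and those with several listed isoforms (red, 48) spread to -2.55 and 2.66.

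Across both times, 1 transcript passed 2-fold upward in HG at 24 h and at 48 h and none passed it downward at both, against 0.382% and 0.546% of the 7321. That transcript, MSTRG.15264.1 (chromosome 4, 99824316 to 99830690, 4027 nt), is the only listed isoform of its number. It had 10.1 FPKM (580 reads) in HG at 48 h, 4.16 (249 reads) in NG at 48 h, 5.03 (317 reads) in HG at 24 h and 1.99 (95 reads) in NG at 24 h. HG was above NG at each time and 48 h above 24 h in each medium. HG over NG was 2.43-fold at 48 h (95% counting interval 2.09 to 2.83) and 2.53-fold at 24 h (2.01 to 3.22). By edgeR (quasi-likelihood, time as a term), its log2 change with glucose was 1.31, with an unadjusted p of 0.00177 and a Benjamini-Hochberg adjusted p of 0.434 over the 7321 transcripts. Its adjusted p in the edgeR, DESeq2 and limma alternatives ran from 0.0830 to 0.9995.

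MSTRG.2039.2 (chromosome 1, 215928011 to 215934216, 349 nt) was also higher in HG at both times by rank, with 34 and 16 reads in HG and NG at 48 h and 32 and 2 reads at 24 h. Its log2 ratios were 0.71 and 1.38, and its adjusted p by edgeR was 0.882. The transcripts lowest in HG at both times were MSTRG.15346.1, with log2 ratios of -0.94 at 48 h and -2.55 at 24 h, and MSTRG.12700.2 (chromosome 20, 18643122 to 18646329, 2310 nt). MSTRG.12700.2 had 17 reads in HG and 47 in NG at 48 h, and 37 in HG and 68 in NG at 24 h. Its CPM in HG was 2.65-fold lower at 48 h (1.49 to 4.92). At 24 h it was 2.42-fold lower (1.60 to 3.72). Its adjusted p by edgeR was 0.739, and the sum over its number had log2 ratios of -0.67 at 48 h and -0.72 at 24 h.

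No assembled transcript passed an adjusted p of 0.05 for glucose by edgeR, DESeq2 or limma, and edgeR called 1 of the 7321 transcripts (0.0137%). DESeq2 called 0.328% of the 7321 and limma 0%. At an unadjusted p under 0.05, edgeR had 5 assembled transcripts higher and 7 lower, against 1.73% higher and 3.02% lower (4.75% in all) of all tested. DESeq2 had 3 at this p, against 1.94%, and limma 14, against 4.77%. The fit left 1 residual degree of freedom, and what changed with glucose at one time but not at the other entered it as spread.

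Time was compared in each medium, with 48 h over 24 h. In NG, 9 assembled transcripts passed 2-fold upward at 48 h and 7 downward (7.08% in all), against 2.02% and 2.65% (4.67% in all) of the 7321 transcripts. In HG, 5 were higher and 6 lower (4.87% in all), against 2.57% and 4.34% (6.91% in all). With TMM scaling 8 were higher and 6 lower in HG, and the share of the 7321 with that scaling is not given. Median log2 ratios were 0.02 in NG and -0.02 in HG, against 0.01 and -0.09 over all transcripts. In NG 13 of the 16, and in HG 9 of the 11, belonged to numbers with several listed isoforms. As sums, none of those 25 numbers was past 2-fold in NG and 2 were in HG, MSTRG.15346 with a log2 ratio of -1.27 and MSTRG.21622 with -1.01. Each library enters a glucose and a time comparison, so the same library can place a transcript at the end of both.

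In NG, MSTRG.10360.3 was highest again, with 163 reads at 48 h and 6 at 24 h, 21.7-fold higher by CPM (9.77 to 60.1), and MSTRG.5017.2 had 33 reads at 48 h and none at 24 h, at least 8.80-fold higher. MSTRG.3899.3 was lowest, with 6 reads at 48 h and 80 at 24 h, 16.7-fold lower (7.33 to 46.8). MSTRG.10821.2 (chromosome 2, 18576122 to 18587549, 416 nt) was not listed at 48 h and had 21 reads at 24 h, at least 8.75-fold lower. It was listed in that library alone, and the other isoform of its number, MSTRG.10821.1, had 75, 102, 97 and 80 reads in HG at 48 h, NG at 48 h, HG at 24 h and NG at 24 h.

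In HG, MSTRG.10360.2 was highest, with 195 reads at 48 h and 49 at 24 h, 4.38-fold higher (3.19 to 6.12), and MSTRG.15346.1 had 32 and 3 reads, 11.7-fold higher (3.67 to 59.9). MSTRG.9427.1 was lowest, with 1 read at 48 h and 44 at 24 h, and MSTRG.10481.1 had no read at 48 h and 35 at 24 h, at least 10.6-fold lower. The number of MSTRG.10360.2 was itself higher at 48 h as a sum, by a log2 ratio of 0.82. That of MSTRG.15346.1 was lower, since MSTRG.15346.2 and MSTRG.15346.3 each had 52 reads in HG at 24 h and none in the other libraries.

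In both media, MSTRG.15264.1 and MSTRG.100.1 were highest at 48 h. MSTRG.15264.1 was 2.01-fold higher in HG (1.75 to 2.32) and 2.1-fold higher in NG (1.65 to 2.68), with an adjusted p of 0.477 for time by edgeR. MSTRG.100.1 (chromosome 1, 12201793 to 12203037, 729 nt) had 17 reads in HG and 31 in NG at 48 h and was not listed in either library at 24 h. It was at least 6.24-fold higher in HG and at least 8.26-fold higher in NG, with 3 counts set for each 24 h library, with an adjusted p of 0.477 by edgeR. Its partner MSTRG.100.2 (12201821 to 12235039, 732 nt) had 10 and 62 reads in HG and NG at 48 h, and 63 and 73 at 24 h. MSTRG.100.3, below the abundance threshold, had 9 reads in HG at 48 h alone. The sum over MSTRG.100 had log2 ratios of -0.51 in HG and 0.023 in NG. The lowest in both media were MSTRG.3286.1 (chromosome 10, 45227657 to 45228230, 533 nt), with log2 ratios of -0.75 in HG and -0.74 in NG, and MSTRG.12700.2, with -0.62 and -0.69. The sum over MSTRG.12700 had log2 ratios of -0.028 in HG and -0.077 in NG, since MSTRG.12700.1 had 38 and 25 reads in HG at 48 h and 24 h, and 53 and 17 in NG.

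For time, no assembled transcript passed an adjusted p of 0.05 by edgeR, DESeq2 or limma, against 0% of the 7321 by edgeR, 0.492% by DESeq2 and 0% by limma. At an unadjusted p under 0.05, edgeR had 8 assembled transcripts higher and 5 lower at 48 h, against 1.60% and 2.65% (4.25% in all) of all tested. DESeq2 had 2 at this p, against 1.79%, and limma 13, against 4.10%. Without the filter on low values, 1 of the 226 passed for time by edgeR, against 0.396% of 17934 transcripts. This was MSTRG.100.1, with an adjusted p of 0.0280 and a range of 0.0280 to 0.894 over its alternatives. As a sum, its number had log2 ratios of 48 h over 24 h of -0.51 in HG and 0.023 in NG.

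**Figure D4:**
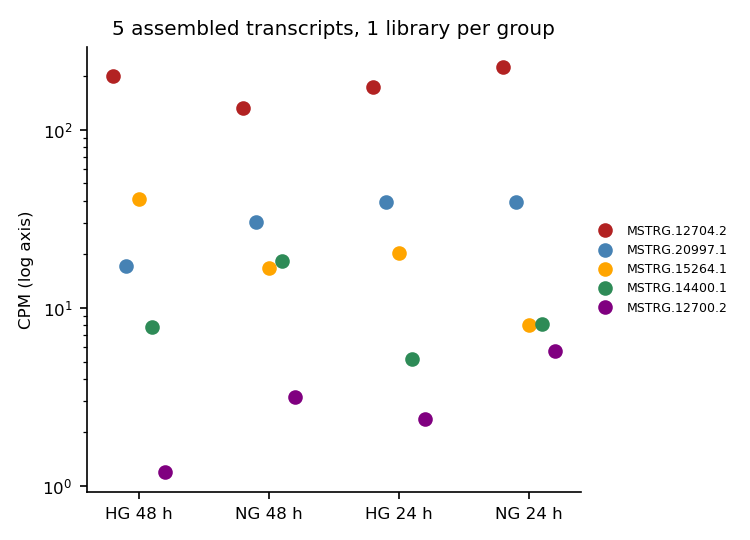
CPM (log axis) of 5 assembled transcripts in HG and NG at 48 h and at 24 h, 1 library per group, with points set slightly apart. MSTRG.15264.1 is highest in HG at 48 h at 40.8 CPM and lowest in NG at 24 h at 8.00 CPM, and MSTRG.12704.2 lies between 132 and 225 CPM throughout.

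Over the 4 library pairs together, 36 of the 226 passed 2-fold in at least 1 pair, against 12.9% of the 7321 transcripts. They were 29 of the 48 members of numbers with several listed isoforms (60.4%) and 7 of the 178 others (3.93%). The threshold on mean FPKM can be passed through 1 high library, so these shares are not independent of it. MSTRG.9427.2 had 4.93 FPKM in HG at 48 h and MSTRG.10821.2 had 4.25 FPKM in NG at 24 h, each with 0 FPKM elsewhere. Median mean counts were 25.4 reads for members of numbers with several listed isoforms and 24.1 reads for the others. Whether depth plays a part in the difference was not tested. Isoforms past 2-fold in opposite directions in the same pair were found in 7 numbers, MSTRG.100, MSTRG.5017, MSTRG.9427, MSTRG.10360, MSTRG.10481, MSTRG.19704 and MSTRG.21122. Among the 25 numbers as sums, 3 passed 2-fold in at least 1 pair. Of the 21 assembled transcripts that at least 1 library did not list, 16 were of numbers with several listed isoforms. Among NONCODE transcripts, 15.6% of those that overlapped another known transcript and 11.4% of the others passed 2-fold in at least 1 pair. Whether these isoform differences come from transcript use or from how reads were divided was not tested.

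MSTRG.19704 on chromosome 7 shows the pattern with 3 members over almost one span. MSTRG.19704.1 (130188595 to 130222649, 1208 nt) had 11 reads in HG and 47 in NG at 48 h, and MSTRG.19704.2 (130188595 to 130222604, 1264 nt) had 62 in HG and 20 in NG. MSTRG.19704.3, with the same span as MSTRG.19704.2 and 1136 nt, had 17 in HG and 37 in NG. The sum was 6.33 CPM in HG and 7.00 CPM in NG at 48 h, and 7.54 CPM in HG and 7.32 CPM in NG at 24 h.

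**Figure D5:**
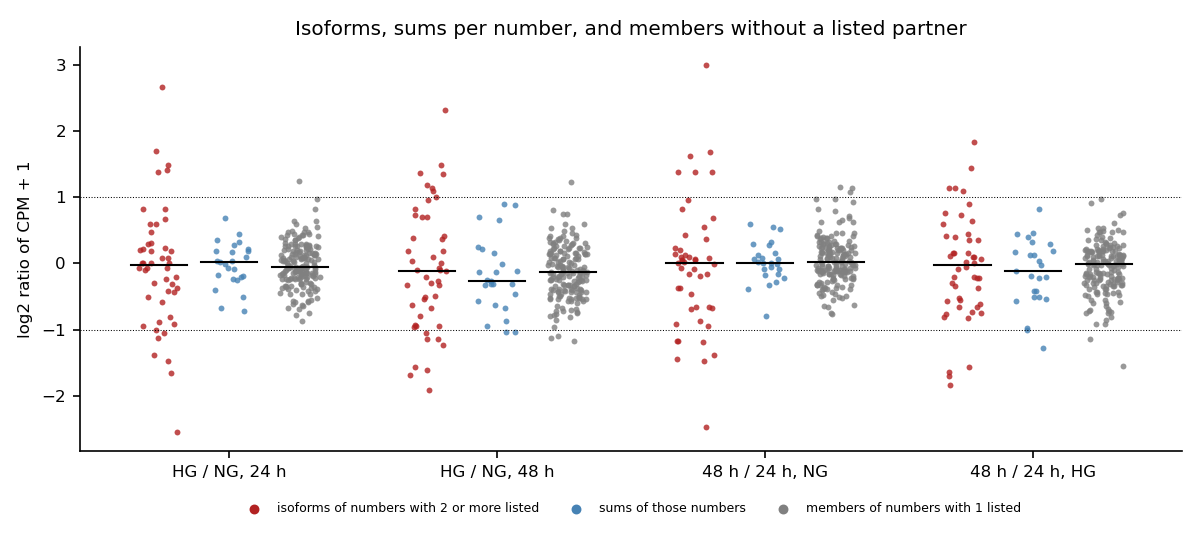
Log2 ratio of CPM + 1 in the 4 library pairs for the 48 members of numbers with at least 2 listed isoforms (red), the sums of those 25 numbers (blue) and the 178 other members (grey), with medians as black bars and dotted lines at 2-fold. The red points spread to 2.99 and -2.55, while of the sums none passes 2-fold at 24 h between media or in NG between times.

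Members of numbers with 1 listed isoform that passed 2-fold were few, and those named next were chosen after their values were seen. MSTRG.14400.1 (chromosome 3, 160184823 to 160200102, 4216 nt) had 111 reads in HG and 271 in NG at 48 h, and 81 in HG and 96 in NG at 24 h. Its NG library at 48 h was the highest, and its log2 ratios were -1.13 for HG over NG at 48 h and 1.08 for 48 h over 24 h in NG. MSTRG.11113.1 (chromosome 2, 61949935 to 61950289, 335 nt) had 26 and 80 reads in HG and NG at 48 h and 42 and 36 at 24 h. MSTRG.11813.1 (chromosome 2, 197835979 to 197838616, 295 nt) was not listed in HG at 48 h and had 17 reads in NG at 48 h, 30 in HG at 24 h and 14 in NG at 24 h. For MSTRG.11113.1 and MSTRG.11813.1, HG at 48 h was the lowest library, as it was for MSTRG.20997.1, which was 2.28-fold lower at 48 h than at 24 h in HG (1.96 to 2.66). NG at 48 h was the highest library for MSTRG.14400.1 and MSTRG.11113.1, and also for MSTRG.18536.2 (19, 43, 6 and 9 reads in HG at 48 h, NG at 48 h, HG at 24 h and NG at 24 h) and MSTRG.19464.1 (6, 26, 7 and 3 reads), both on chromosome 7.

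The lowest library differed among transcripts. Of the 42 assembled transcripts whose highest and lowest library were at least 2-fold apart (18.6%, against 14.4% of the 7321), the lowest was HG at 48 h for 16 (38.1%), NG at 48 h for 11 (26.2%), HG at 24 h for 6 (14.3%) and NG at 24 h for 9 (21.4%). Over all 1056 transcripts past 2-fold these shares were 42.8%, 21.6%, 20.4% and 15.2%, so HG at 48 h was most often the lowest in both sets. This holds for CPM by the recovered totals and is not given with TMM scaling. That scaling moved the median log2 ratio of HG over NG at 48 h from -0.14 to -0.01 over all transcripts. Of the 42, 31 were of numbers with several listed isoforms.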

How the data were processed

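Total RNA libraries were strand-specific, per the labels' protocols. The submitters' processing notes name TopHat2 2.1.0 and Cufflinks, with the builds rn6 and Rnor_6.0. The tool that assembled the MSTRG models, the counting method and its use of strand are not given in these sources. The authors deposited raw read counts and FPKM per transcript, and transcript lengths for 1 library, per the file headers. Totals behind FPKM were recovered from count, length and FPKM (all transcripts of the 48 h libraries gave 1 total within 1%, and all but 2 in each 24 h library did) and used as library sizes. Missing lengths were recovered likewise. Samples were grouped by title.

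edgeR 4.0.16 (quasi-likelihood, terms for medium and time, Benjamini-Hochberg adjustment) was fitted to all 7321 transcripts of at least 1 FPKM and 200 nt. The fit was also run on simulated counts with less spread than these libraries, which does not measure its accuracy here. DESeq2 1.42.0, limma 3.58.1 (on log2 (FPKM + 1)), other scalings, filters, pseudocounts, sums per MSTRG number and fits without 1 library were alternatives. Ratio intervals are exact (Clopper-Pearson) at 95%. Overlaps used the deposited positions. Named transcripts were the extremes in abundance, length, each comparison, isoform number and overlaps (2 in each direction per comparison). Members and lists were chosen with earlier results of these data known. A rat RefSeq gene table (GRCr8) held none of the 226 identifiers, so no gene names or sequences are given. P-values measure only the spread between these libraries, for which no separate cultures are stated.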

Additional observations from a re-analysis of the deposited data

Results flagged for a closer look

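MSTRG.10360.2 and MSTRG.3899.3 passed 2-fold in HG over NG in opposite directions at 48 h and 24 h, with 1 library per group, so the difference between the times was not tested. For MSTRG.10360.2 the log2 ratio of HG over NG was 1.36 at 48 h and -1.66 at 24 h, a difference of 3.02. The same difference of 3.02 separates its time ratios, 1.83 in HG and -1.19 in NG, since the same 4 libraries form both. For MSTRG.3899.3 the log2 ratio was 2.31 at 48 h and -1.05 at 24 h, a difference of 3.36. The sums over their numbers were 0.66 and -0.0086 for MSTRG.10360, and -0.46 and -0.18 for MSTRG.3899, at 48 h and 24 h.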

How the results depend on the processing

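The count of assembled transcripts past 2-fold changed with the settings that set the scale or the unit, and library scalings kept it within 1.5 times. For HG over NG at 24 h, against 12, it was 27 with a pseudocount of 0.25 CPM, 20 on log2 (FPKM + 1), 6 with a mean of at least 2 FPKM, 19 without a filter and 1 as sums per MSTRG number. At 48 h, against 20, it was 42, 33 and 11 in the first 3 of these and 6 as sums. For 48 h over 24 h in NG, against 16, it was 31 with the smaller pseudocount, 7 with at least 2 FPKM and 3 as sums. In HG, against 11, it was 32, 22, 5, 18 and 4 in the order given for 24 h. Directions moved too. In HG over time, against 5 higher and 6 lower, they were 8 and 6 with TMM or size factors, 11 and 21 with the smaller pseudocount, 8 and 14 on log2 (FPKM + 1), 1 and 4 with at least 2 FPKM, 7 and 11 without a filter, and 0 and 4 as sums. At 48 h, against 9 and 11, they were 15 and 27 with the smaller pseudocount and 1 and 5 as sums. At 24 h, against 6 and 6, they were 4 and 2 with at least 2 FPKM, 12 and 7 without a filter, and 1 and 0 as sums. In NG over time, against 9 and 7, they were 3 and 0 as sums. Fewer transcripts are tested at 2 FPKM, and isoforms are merged in sums. The share of all 7321 transcripts past 2-fold is not given under these other settings. These counts therefore do not show whether assembled transcripts differ from the rest.

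As sums per number, log2 ratios reversed for MSTRG.15346.1 (0.17), MSTRG.10360.3 (-0.0086) and MSTRG.10481.1 (-0.070) at 24 h, for MSTRG.20130.1 (0.15), MSTRG.5017.2 (0.25) and MSTRG.3899.3 (-0.46) at 48 h, for MSTRG.3899.3 in NG over time (0.60) and for MSTRG.15346.1 in HG over time (-1.27). For all 16 ratios of the transcripts named per comparison, TMM and size factors kept the value within its counting interval, carried to the log2 (CPM + 1) scale. The smaller pseudocount moved 14 of them beyond it, log2 (FPKM + 1) moved 14, and equal sums over lncRNAs moved 2. As sums, the other 8 also left the interval, as MSTRG.5017.2 in NG (0.069, against 1.69), MSTRG.10821.2 (-0.27, against -1.47) and MSTRG.9427.1 (-0.19, against -1.83) did over time.

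For glucose, no edgeR, DESeq2 or limma alternative called an assembled transcript, leaving out any library included, and for time 1 was called without the filter. Fits without 1 library had no term for the other factor. That fit with all 4 libraries, added after the data were seen, also called 0. At an unadjusted p under 0.05, assembled transcripts numbered 12 for glucose by edgeR, and 9 to 30 with a library left out, the highest without HG at 24 h (13.3%, against 13.5% of all 7321). For time they numbered 13, and 4 to 27 with a library left out, the highest without NG at 48 h (11.9%, against 12.5%) and the lowest without NG at 24 h. DESeq2 gave no adjusted p for 66 assembled transcripts in the glucose test. The overlap with listed NONCODE or Ensembl transcripts, 24, was 16 with at least 50% of the span and 9 with transcripts of at least 1 FPKM. No paired analysis was possible because the libraries carry no replicate numbers. The fit with terms for medium and time already compares the media within each time and the times within each medium.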

Other observations

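Some assembled transcripts of different numbers were neighbours. In 9 places, members of at least 2 numbers lay within 10000 bases of each other, 20 members in all. One of these places, chosen after its values were seen, is chromosome 6, 136657650 to 136663012, with MSTRG.18445.2, MSTRG.18450.2 and MSTRG.18450.3. Their summed level was 22.8 CPM in HG at 48 h, 13.7 in NG at 48 h, 16.5 in HG at 24 h and 9.68 in NG at 24 h. MSTRG.18445.2 had 5.20, 3.30, 2.30 and 1.26 CPM in that order, so that 48 h lay above 24 h in each medium and HG above NG at each time. MSTRG.18450.2 had 12.3, 6.53, 7.79 and 4.80 CPM, also with HG above NG at each time. None of these passed an adjusted p of 0.05 by edgeR.

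On chromosome 4, MSTRG.15346.2 and MSTRG.15346.3 each had 52 reads in HG at 24 h and none elsewhere. MSTRG.15346.1 had 3 reads in that library and 32, 78 and 71 reads in HG at 48 h, NG at 48 h and NG at 24 h.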
